A study of Homo sapiens with 4 samples.

Results

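Cells make cholesterol from acetyl-CoA through mevalonate, the isoprenoid units and squalene, and they make fatty acids from the same acetyl-CoA through malonyl-CoA. Transcription of both branches is driven by the sterol regulatory element-binding proteins (SREBPs), membrane proteins of the endoplasmic reticulum that SCAP escorts to the Golgi for cleavage and that the INSIG proteins hold back when sterols are plentiful. SREBP2, the product of SREBF2, is known mainly for the cholesterol branch, and the SREBP1c form encoded by SREBF1 mainly for the fatty acid branch. Tumour cells often run both branches at a high rate to build membranes.

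The genes described here are 29 genes of cholesterol and fatty acid synthesis, chosen by symbol from the 25559 gene symbols of the count tables. They comprised 7 genes of the mevalonate steps, 9 of the steps from squalene to cholesterol, 5 that regulate SREBPs or carry sterol, and 8 of fatty acid synthesis. All 29 had a row, and all 29 passed the filter on low counts, with 91 or more counts in every library. RNA-seq had been carried out on HGC27, a human gastric cancer cell line that in this study was taken as a model of metastasis, with 2 libraries of cells whose genotype is labelled wildtype (wt, the control) and 2 of cells labelled RUNX3 knock-out (RUNX3KO). The RUNX3KO cells carried a lentiviral Cas9 with 1 guide against a RUNX3 exon and had been selected with puromycin and cloned from single cells, while the handling of the wt cells and the number of clones behind the libraries are not given in the sources used here. Nothing says that replicates were separate cultures, so the p-values measure only the spread between these libraries, which may be technical.

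RUNX3 had 351 and 308 counts in the wt libraries and 225 and 185 in the RUNX3KO libraries. Its RNA was lower but still present in RUNX3KO cells, at 27.9 ± 2.57 against 17.2 ± 2.60 CPM (the count scaled to a common library total, after TMM; mean ± SD, n = 2 per genotype). The difference was -0.70 on the log2 scale (SE 0.0961, edgeR adjusted p = 1.43e-09). Without RUNX3KO replicate 2 the value was -0.55 and the call was lost (edgeR adjusted p = 0.0649). By immunoblot, the paper reports absence of RUNX3 protein from its HGC-27 knockout cells. The RUNX3 RNA that remained does not measure protein. Reads on genes numbered from 11731401 to 12110876 per library. The 2 wt libraries differed by little more than counting noise (chi-square of 1.22 per degree of freedom), as did the 2 RUNX3KO libraries (1.18), against 16.9 to 17.4 between genotypes. With so little spread, 48.9% of the 12967 genes tested passed an adjusted p of 0.05 (Benjamini-Hochberg over all genes tested), 24.4% as lower and 24.5% as higher in RUNX3KO, so the size of a change says more than its call. For a single value, 0.333 is the smallest two-sided p that an exact permutation test allows with these 4 libraries. HGC27 showed little of an epithelial identity: the 7 epithelial markers summed to 3.14 to 3.22 CPM in wt and 9.49 to 11.2 CPM in RUNX3KO. KRT19 had no counts, EPCAM at most 1 and CLDN4 and ESRP1 at most 5 per library. KRT8 had 19 and 11 counts in wt and 72 and 81 in RUNX3KO, CDH1 15 and 21 against 30 and 32, and KRT18 0 and 0 against 2 and 14. Of 4 mesenchymal markers, VIM made up nearly all of the sum, at 4900 and 4870 CPM in wt and 2870 and 2940 CPM in RUNX3KO, with a neighbourhood median (the median log2 fold change of up to 20 nearest tested genes on each side) of -0.33. ZEB1 stood at 87.2 and 72.9 CPM and FN1 at 8.90 and 1.09 CPM in wt and RUNX3KO, and CDH2 had at most 3 counts in any library. The part of these marker differences in the results below was not tested. Haematopoietic, endothelial, hepatocyte and adipocyte markers summed to at most 2.29 CPM per list in any library. In bulk RNA, fewer cells of a kind and less RNA per cell cannot be told apart.

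Of the 29 genes, 20 were lower in RUNX3KO (69.0%, against 24.4% of all genes tested), 4 were higher (13.8%, against 24.5%) and 5 did not pass. With RUNX3KO replicate 1 left out, 11 were lower and 0 higher, against 11.6% and 11.2% of all genes tested. With RUNX3KO replicate 2 left out, 11 were again lower and 0 higher, against 10.4% and 9.70%. With wt replicate 2 left out, 18 were lower and 1 higher, against 21.0% and 20.5%. None of the 29 genes reached, in this test, the 2-fold change with an unadjusted p of at most 0.05 that the study required. Of all genes, 6.12% did (4.01% as lower and 2.11% as higher). With another normalization the paper counts more genes in each direction, so its own calls may differ from these. The median log2 fold change of the 29 genes was -0.28, and that of all genes tested was -0.0021. A fall of at least 0.5 on the log2 scale with an adjusted p under 0.05 was seen in 9 of the genes (31.0%, against 9.99% of all genes). Scaled counts of the genotypes did not overlap in 23 of the genes as lower (79.3%, against 36.4% of all genes) and in 4 as higher (13.8%, against 36.3%). All 16 enzymes from ACAT2 to DHCR7 had lower levels in both RUNX3KO libraries than in both wt libraries. Of these, 15 passed the test, and fewer did with either RUNX3KO library left out. The 8 fatty acid genes were instead split into 2 lower, 3 higher and 3 that did not pass. As a whole, RNA of the 16 cholesterol enzymes summed to 2907 and 2938 CPM in the wt libraries and to 2030 and 2050 CPM in the RUNX3KO libraries, 69.8% of the wt level. Without SQLE, the most abundant of them, the level was 73.0%. The 8 fatty acid genes summed to 3325 and 3237 CPM in wt and 3178 and 3255 CPM in RUNX3KO, 98.0% of the wt level, with the libraries of the genotypes overlapping. SCD, the most abundant of them, had means of 1630 CPM in wt and 1540 CPM in RUNX3KO, so it weighs most in this sum. No test compared the branches with each other.

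**Figure D1:**
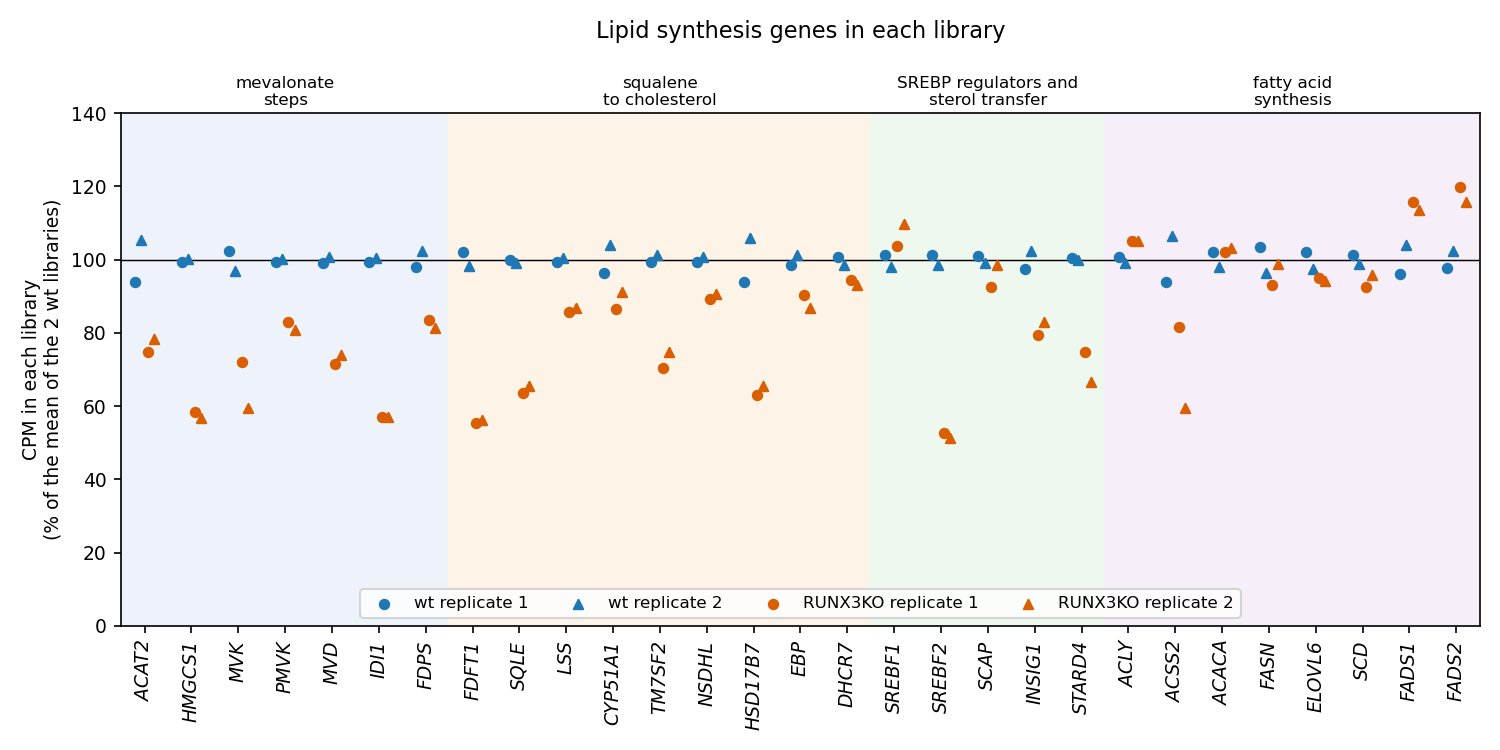
Level of each of the 29 genes in each library, as CPM in percent of the mean of the 2 wt libraries. Circles are replicate 1 and triangles replicate 2, blue for wt and orange for RUNX3KO, and shaded bands separate the roles. RUNX3KO points lie below the wt points for all 16 enzymes of the cholesterol branch, furthest for FDFT1 (55.7% of wt by its fold change), and near 100% for most fatty acid genes.

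All 7 genes of the mevalonate steps fell, against 24.4% of all genes tested, with log2 fold changes from -0.81 to -0.28 and a median of -0.46. In none did the libraries of the genotypes overlap, as was so in the lower direction for 36.4% of all genes tested. IDI1, which isomerises the isoprenoid unit, had 1984 and 2006 counts in wt and 1135 and 1161 in RUNX3KO. Each RUNX3KO library therefore stood well below each wt library, with levels of 169 ± 1.37 and 96.4 ± 0.289 CPM and a log2 fold change of -0.81 (SE 0.0408, edgeR adjusted p = 5.67e-32). HMGCS1 makes the HMG-CoA from which mevalonate is formed. It had 3560 and 3605 counts in wt and 2098 and 2076 in RUNX3KO. This was a fall from 304 ± 2.79 to 175 ± 3.59 CPM, or of 1.73-fold (log2 fold change -0.79, SE 0.0329, edgeR adjusted p = 6.98e-38). MVK, the kinase that phosphorylates mevalonate, was expressed at a low level, with 154 and 145 counts in wt and 108 and 91 in RUNX3KO. Its log2 fold change was -0.60 (SE 0.134, edgeR adjusted p = 9.43e-05), ranging from -0.74 to -0.47 as each library was left out, and without RUNX3KO replicate 2 its call was lost (edgeR adjusted p = 0.0707). MVD, which decarboxylates the diphosphate, and ACAT2, the cytosolic thiolase at the start of the path, changed by -0.46 (SE 0.0622) and -0.38 (SE 0.0452). PMVK, the second kinase, and FDPS, which joins the units to farnesyl diphosphate, changed least, by -0.29 (SE 0.0755) and -0.28 (SE 0.0316). ACAT2 and PMVK lost their calls when either RUNX3KO library was left out (edgeR adjusted p from 0.0513 to 0.0774), and PMVK also with DESeq2 (adjusted p = 0.0634).

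From squalene to cholesterol, 8 of 9 genes passed as lower, against 24.4% of all genes tested, and the median was -0.22. Several of these calls were lost with a RUNX3KO library left out, as given below. FDFT1, squalene synthase, commits farnesyl diphosphate to sterols. It had 2864 and 2764 counts in wt and 1554 and 1607 in RUNX3KO, a fall from 238 ± 5.92 to 133 ± 1.42 CPM (log2 fold change -0.85, SE 0.0362, edgeR adjusted p = 6.44e-37). SQLE, squalene epoxidase, the next enzyme and a rate-limiting one, had 13538 and 13504 counts in wt and 8634 and 9066 in RUNX3KO. Its level fell from 1150 ± 1.70 to 743 ± 16 CPM (log2 fold change -0.62, SE 0.0229, edgeR adjusted p = 1.14e-41). In both genes the distance between genotypes was many times that between replicates. HSD17B7, a 3-keto-reductase of the later steps, had only 148 and 166 counts in wt and 99 and 105 in RUNX3KO. Its log2 fold change was -0.63 (SE 0.131, edgeR adjusted p = 2.48e-05), and it missed the threshold when either RUNX3KO library was left out (edgeR adjusted p of 0.0561 and 0.0576). TM7SF2, a sterol reductase, changed by -0.47 (SE 0.115, edgeR adjusted p = 0.000359), a call lost without RUNX3KO replicate 1. LSS, which closes the sterol ring to lanosterol, changed by -0.22 (SE 0.0351). The changes of EBP, CYP51A1 and NSDHL, which act between lanosterol and the last sterol intermediates, were -0.18 (SE 0.0652), -0.17 (SE 0.0662) and -0.15 (SE 0.0529). These 3 passed in the main test but not with DESeq2 (adjusted p of 0.228, 0.251 and 0.183), nor when wt replicate 2 or either RUNX3KO library was left out (edgeR adjusted p from 0.0568 to 0.279). EBP and CYP51A1 also lost the call without a filter (edgeR adjusted p of 0.0560 and 0.101) and after neighbourhood subtraction (0.174 and 0.0884). DHCR7, the last enzyme of one route to cholesterol, had a log2 fold change of -0.08 (SE 0.0412, edgeR adjusted p = 0.0802). It thus did not pass, although its RUNX3KO libraries (1441 and 1448 counts) lay below its wt libraries (1538 and 1498) after scaling. It passed with library size alone, with upper-quartile scaling and after subtraction of the median of its neighbours (edgeR adjusted p from 0.0281 to 0.0303).

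**Figure D2:**
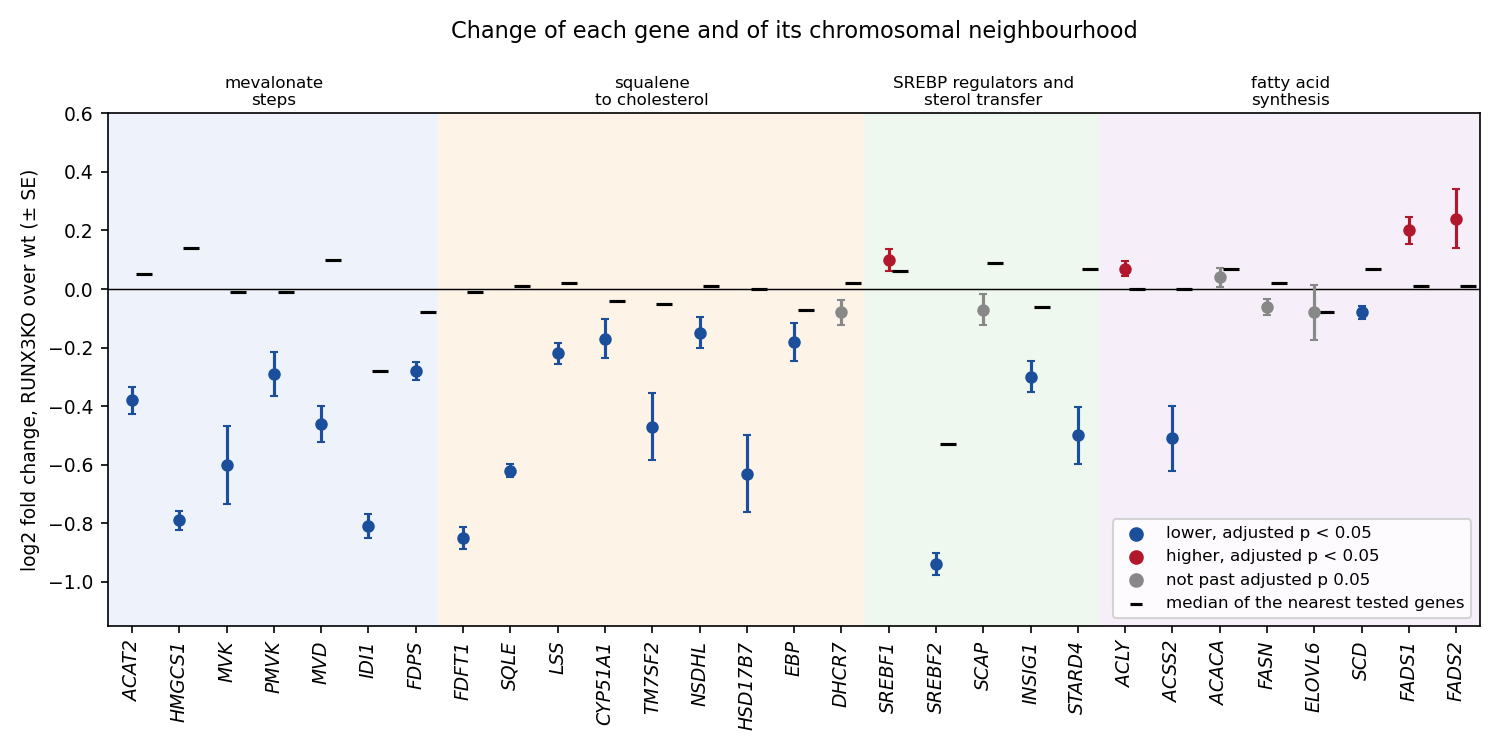
Log2 fold change of RUNX3KO over wt for each of the 29 genes, with its SE from edgeR, coloured by direction and call at an adjusted p of 0.05. A black dash marks the median log2 fold change of the tested genes nearest to each gene on its chromosome. SREBF2 (-0.94) and IDI1 (-0.81) lie over neighbourhoods that are themselves lower (-0.53 and -0.28), while the other medians are above -0.1.

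Among the regulators, SREBF2 changed most of all 29 genes in the plain comparison, though not after subtraction of the neighbourhood median. It had 2634 and 2561 counts in wt and 1374 and 1360 in RUNX3KO. The level fell from 220 ± 4.31 to 115 ± 2.33 CPM, to 52.2% of wt (log2 fold change -0.94, SE 0.0377, edgeR adjusted p = 7.53e-39), just under the 2-fold criterion. SREBF1 had 1859 and 1799 counts in wt and 1906 and 2048 in RUNX3KO, a log2 fold change of 0.10 (SE 0.0379, edgeR adjusted p = 0.0239). Its call did not hold with library size alone, with upper-quartile scaling, with DESeq2 or without a filter (adjusted p from 0.0779 to 0.232), and it was also lost after subtraction of the neighbourhood median and without wt replicate 2, RUNX3KO replicate 1 or RUNX3KO replicate 2 (adjusted p from 0.0848 to 0.444). In each wt library there were 1.42 SREBF2 counts for each SREBF1 count, and in the RUNX3KO libraries 0.721 and 0.664. SCAP had 886 and 868 counts in wt and 811 and 880 in RUNX3KO, a log2 fold change of -0.07 (SE 0.0527, edgeR adjusted p = 0.310), which does not show that its level was the same. After subtraction of its neighbourhood median the value was -0.16 and passed (edgeR adjusted p = 0.0105). INSIG1, which retains SREBPs and is itself an SREBP target, had 932 and 977 counts in wt and 758 and 807 in RUNX3KO. Its log2 fold change was -0.30 (SE 0.0526, edgeR adjusted p = 9.25e-07), a call lost without RUNX3KO replicate 1. STARD4, which carries sterol between membranes, had 287 and 285 counts in wt and 214 and 194 in RUNX3KO, a log2 fold change of -0.50 (SE 0.0965, edgeR adjusted p = 7.02e-06).

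The fall of SREBF2 was shared with its surroundings. SREBF2 lies on chromosome 22 from 42229109 to 42303310 (hg19, plus strand). Of the 40 nearest tested genes, 39 were lower in RUNX3KO, their median was -0.53 on the log2 scale, and 2 had a fall as large as that of SREBF2 or larger. Over the whole of chromosome 22, 281 of 289 tested genes (97.2%) had lower RNA in RUNX3KO and the median was -0.52, and 31 genes besides SREBF2 had a fall of its size or more. With the median of the 40 neighbours subtracted, SREBF2 kept a log2 fold change of -0.41 (edgeR adjusted p = 1.34e-18), less than the -0.94 of the plain comparison. Here and in every such subtraction the median was taken as fixed, so the p-value leaves out the spread among the neighbours. A change that covers this chromosome in the cloned cells and a change that follows from the RUNX3 genotype cannot be told apart with these libraries, and DNA copy number was not analysed here. IDI1, on chromosome 10 from 1085092 to 1095059 (minus strand), was the only other of the 29 genes whose neighbourhood median was below -0.1. Of its 24 nearest tested genes, 21 were lower, with a median of -0.28. IDI1 fell further than each of them and kept -0.53 after subtraction. Other genes named in this report lie on chromosome 10 too. The neighbourhood medians of VIM, PTPLA and PDSS1 were -0.33, -0.35 and -0.25, and those of ZEB1, LIPA and SCD were -0.08, 0.03 and 0.07. The cause of these regional differences was not tested. The 29 genes lay on 16 chromosomes. HMGCS1 (chromosome 5 from 43287572 to 43313614, minus strand), FDFT1 (chromosome 8 from 11653082 to 11696904, plus strand) and SQLE (chromosome 8 from 126010739 to 126034525, plus strand) had neighbourhood medians of 0.14, -0.01 and 0.01. After subtraction their log2 fold changes were -0.93, -0.83 and -0.64, and 14 of the 16 cholesterol enzymes passed as lower, with a median of -0.43, against 23.2% of the 12115 genes to which the subtraction could be applied. Of these enzymes, 13 passed both before and after subtraction, CYP51A1 and EBP lost the call and DHCR7 gained it.

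**Figure D3:**
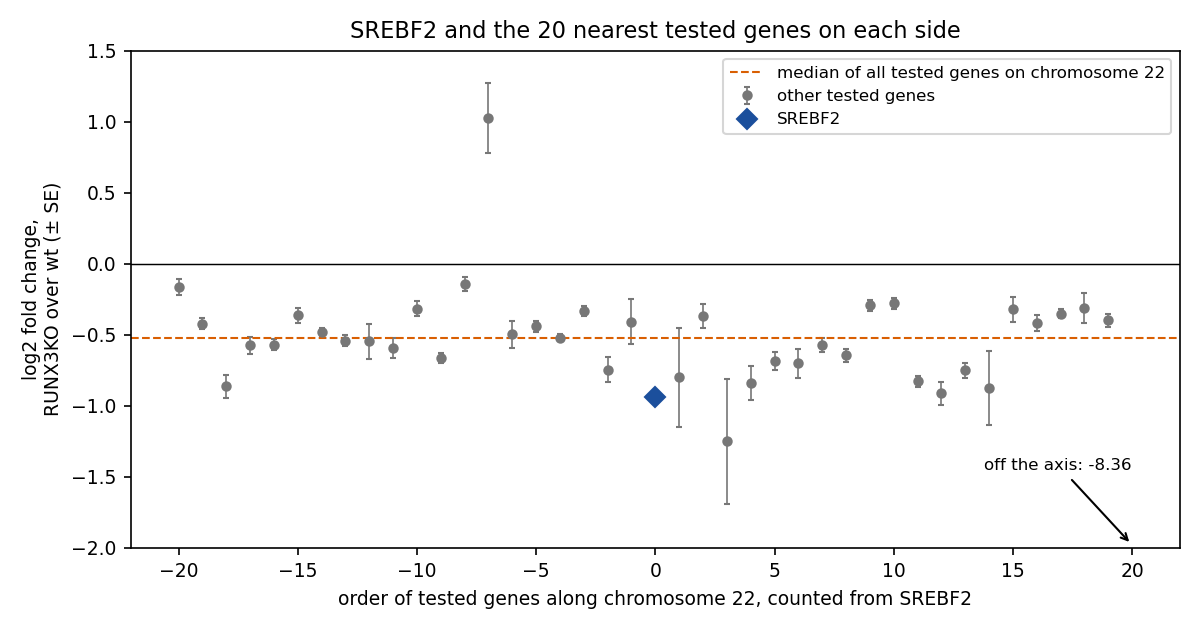
Log2 fold change of RUNX3KO over wt, with its SE, for SREBF2 (blue diamond) and the 20 nearest tested genes on each side (grey points), in their order along chromosome 22. The dashed line is the median of all 289 tested genes on the chromosome, -0.52. 1 gene is off the axis at -8.36, 1 gene lies above 0, and SREBF2 is at -0.94.

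The promoter windows of these genes, from 250 bases before to 50 bases after the start site in RefSeq (GRCh38.p14, another build than that of the counts), were searched on both strands for the letters of elements known to act at SREBP targets and for the RUNX element. ACAT2, FASN, FDFT1 and SQLE were not matched, which left 25 genes. Shares over the 8864 tested genes with a window stand beside each. CCAAT, the letters of the NF-Y box, was found in 10 of 13 windows of the cholesterol enzymes (76.9%), in 3 of 7 of the fatty acid genes (42.9%) and in 37.1% of all. GGGCGG, for SP1, was found in 23 of 25 windows (92.0%) and 71.1% of all. The sterol regulatory element, searched as TCACNCCAC, was found in 1 of 25 windows, that of SREBF2, and in 1.08% of all. CACGTG, an E-box, was found in 3 of 25 (12.0%), in SCAP, INSIG1 and LSS, and in 10.2% of all. The RUNX letters TGTGGT were found in 4 of 25 (16%), in MVD, LSS, SCAP and SCD, and in 9.06% of all. Neighbouring matches of different strings may share letters. A match is a run of letters and not a measured binding site, and the absence of one covers only this exact string and window. The stretches below are shown because they hold the one sterol element and examples of the CCAAT letters in genes of the cholesterol branch and its regulators (SREBF2, HMGCS1, FDPS, INSIG1) and in SCD of the fatty acid branch. They run 5′ to 3′ on the strand of the gene and end before its start site, with the matches to TCACNCCAC and to CCAAT on either strand in capitals.
SREBF2 (chr22:41832952-41833023, plus strand): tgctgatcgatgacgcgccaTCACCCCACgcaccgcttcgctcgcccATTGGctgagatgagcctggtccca
HMGCS1 (chr5:43313488-43313587, minus strand): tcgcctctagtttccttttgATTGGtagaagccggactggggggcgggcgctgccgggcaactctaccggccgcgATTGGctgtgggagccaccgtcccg
FDPS (chr1:155308670-155308839, plus strand): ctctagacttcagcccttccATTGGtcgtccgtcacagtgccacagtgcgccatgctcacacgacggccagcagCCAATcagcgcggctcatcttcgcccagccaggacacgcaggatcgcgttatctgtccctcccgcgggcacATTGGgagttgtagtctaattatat
INSIG1 (chr7:155297688-155297732, plus strand): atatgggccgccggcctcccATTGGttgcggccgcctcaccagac
SCD (chr10:100346984-100347071, plus strand): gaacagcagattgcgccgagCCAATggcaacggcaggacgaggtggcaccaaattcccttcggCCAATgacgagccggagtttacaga

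The fatty acid genes as a group had a median log2 fold change of -0.01. ACSS2, which makes acetyl-CoA from acetate, stood apart from the others, with 218 and 248 counts in wt and 190 and 141 in RUNX3KO. The RUNX3KO replicates of this gene differed more from each other than in most of the genes, and the log2 fold change of -0.51 (SE 0.111, edgeR adjusted p = 7.11e-05) became -0.29 without RUNX3KO replicate 2, where the call was lost (edgeR adjusted p = 0.184), as it was without a filter (edgeR adjusted p = 0.0715). SCD, the desaturase that makes monounsaturated fatty acids, was the most abundant of the 29 genes, with 19460 and 19055 counts in wt and 17869 and 18786 in RUNX3KO. It fell by 0.08 on the log2 scale (SE 0.0212, edgeR adjusted p = 0.000479), and missed the threshold without either RUNX3KO library, as did FADS1. After subtraction of its neighbourhood median the value of SCD was -0.16 (edgeR adjusted p = 1.36e-10). ACLY, which makes cytosolic acetyl-CoA from citrate, rose by 0.07 (SE 0.0240), and the desaturases of polyunsaturated fatty acids, FADS1 and FADS2, rose by 0.20 (SE 0.0463) and 0.24 (SE 0.10), with edgeR adjusted p-values of 0.00848, 0.000221 and 0.0406. The exons of FADS1 and FADS2 overlap on opposite strands. FADS2 lost its call with each library left out in turn (edgeR adjusted p from 0.0715 to 0.173), with DESeq2, with library size alone, with upper-quartile scaling, without a filter and after neighbourhood subtraction. ACLY lost it without wt replicate 2 or either RUNX3KO library (edgeR adjusted p from 0.0605 to 0.127), with DESeq2, with library size alone and with upper-quartile scaling. The 2 enzymes that build the chain, ACACA (acetyl-CoA carboxylase) and FASN (fatty acid synthase), had log2 fold changes of 0.04 (SE 0.0324) and -0.06 (SE 0.0271), and their libraries overlapped between genotypes. The elongase ELOVL6 had a log2 fold change of -0.08 (SE 0.0928). These 3 did not pass, with edgeR adjusted p-values of 0.322, 0.0677 and 0.519, though FASN did without wt replicate 2, at -0.11 (edgeR adjusted p = 0.000299), and also with library size alone, with upper-quartile scaling, with 10 counts required in every library and after neighbourhood subtraction (edgeR adjusted p from 0.00818 to 0.0324). Without wt replicate 1 its value was near 0 (edgeR adjusted p = 0.916), and without RUNX3KO replicate 1 it was -0.02 (edgeR adjusted p = 0.865).

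Per kilobase of merged exons, a rough measure because alternative exons lengthen many genes, SCD had the highest level in wt at 311 CPM per kilobase. SQLE followed at 266, ACLY at 132, FDPS at 79.2 and FASN at 61.2 CPM per kilobase. In RUNX3KO cells the order of these 5 was the same, at 293, 173, 139, 65.1 and 58.8 CPM per kilobase. The lowest levels in wt were those of MVK and FADS2, at 1.40 and 1.62 CPM per kilobase. In RUNX3KO they were those of MVK and HSD17B7, at 0.927 and 1.79 CPM per kilobase. SREBF2 stood above SREBF1 in wt, at 27.3 against 18.8 CPM per kilobase, and below it in RUNX3KO, at 14.3 against 20.2. Counts of some members are uncertain. Processed pseudogenes named after FDPS, IDI1, CYP51A1, HSD17B7 and SCD exist in the annotation, and reads that aligned to more than 1 place were set apart in the tables and not counted to a gene. Of the overlaps with another gene that cover at least 10% of a gene's exon bases, ACAT2 shares 17.2% with TCP1, FDPS 18.6% with RUSC1-AS1, IDI1 15.0% with IDI2-AS1 and HMGCS1 37.7% with an unnamed long noncoding RNA, all on the opposite strand. CYP51A1 shares 68.2% and 67.8% with 2 unnamed protein-coding genes and EBP 36.4% with another, on the same strand. The unnamed genes have no row under that annotation's name in the count tables, and whether the counting used strand is not given in the sources used here.

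Lipid genes outside the 29 were read from the same test in 6 lists by role. Of 98 tested, 35 were lower and 20 higher, with a median of -0.03. The counts of each list are to be read against the 24.4% of all genes tested that were lower and the 24.5% that were higher. The list closest to the cholesterol branch, the remaining sterol and isoprenoid enzymes, had 6 of 12 lower and 2 higher and a median of -0.20. In it MSMO1, which removes methyl groups from the sterol, changed by -0.78 (SE 0.0589), and PDSS1, which builds the tail of ubiquinone, by -0.47 (SE 0.0685). The neighbourhood of PDSS1 had a median of -0.25. Genes of SREBP processing and turnover had a median of 0.01, with 5 of 13 lower and 2 higher. UFD1L, a partner in the degradation of proteins from the endoplasmic reticulum, fell by 0.85 (SE 0.0569) in a neighbourhood with a median of -0.51, on chromosome 22 like SREBF2. LPIN1, a phosphatidate phosphatase, fell by 0.26 (SE 0.0658), a call lost with DESeq2, without a filter and without RUNX3KO replicate 1 (adjusted p from 0.0539 to 0.12).

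Sterol uptake, storage and efflux had 8 of 19 genes lower and 3 higher (all genes tested: 24.4% and 24.5%), with a median of -0.06. VLDLR, a lipoprotein receptor, rose by 1.36 (SE 0.0623), from 32.5 ± 0.769 to 83.2 ± 4.85 CPM, while its nearest genes had a median of 0.93. LRP1, another receptor of that family, fell by 0.69 (SE 0.0483), and LIPA, the lysosomal lipase that frees cholesterol from its esters, fell by 0.66 (SE 0.0560). In fatty acid elongation, desaturation and activation, 7 of 18 genes were lower and 4 higher, with a median of 0.05. HSD17B12, which acts in the elongation cycle, rose from 22.6 ± 1.92 to 86.6 ± 4.04 CPM (log2 fold change 1.94, SE 0.0675, edgeR adjusted p = 2.34e-43), the largest rise among the genes named here by the rule. PTPLA, a dehydratase of the same cycle, fell by 0.90 (SE 0.0803) in a neighbourhood at -0.35, and SCD5 fell by 0.47 (SE 0.0990), a call lost without RUNX3KO replicate 1 (edgeR adjusted p = 0.0524). In glycerolipid synthesis and lipid droplets, 4 of 14 genes were lower and 3 higher, close to the shares of all genes, with a median of -0.04. DGAT2, which makes triacylglycerol, fell by 0.94 (SE 0.0829), LPIN3 fell by 0.74 (SE 0.204) and LPIN2 rose by 0.50 (SE 0.0517). The call of LPIN3 was lost with DESeq2 and without wt replicate 2 or either RUNX3KO library (adjusted p from 0.0793 to 0.136). In fatty acid oxidation and uptake, 5 of 22 genes were lower and 6 higher, also close to those shares, with a median of 0.01. The fatty acid-binding proteins FABP3 and FABP5 rose by 0.91 (SE 0.102) and 0.70 (SE 0.113), and the transporter SLC27A1 fell by 0.61 (SE 0.184) in a neighbourhood at -0.30. After subtraction the value of SLC27A1 was -0.31 and the call was lost (edgeR adjusted p = 0.168), as it was with DESeq2 and without wt replicate 2 or either RUNX3KO library (adjusted p from 0.0532 to 0.137). CD36, a receptor for fatty acid uptake that was named after its values were seen, had 1 and 6 counts in wt and 59 and 42 in RUNX3KO.

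**Figure D4:**
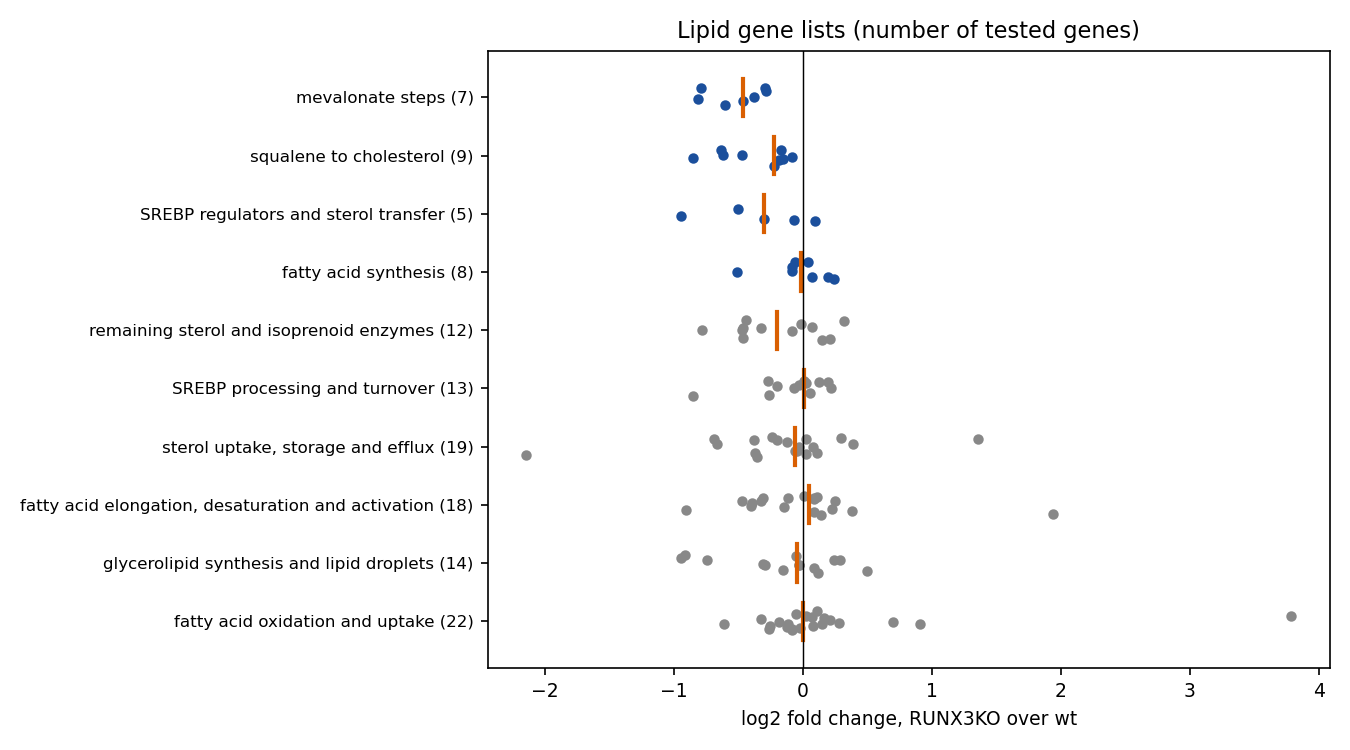
Log2 fold change of RUNX3KO over wt for each tested gene of the 4 groups of the 29 genes (blue) and of the 6 other lipid lists (grey), 1 point per gene, with the median of each list as an orange bar. The medians are -0.46, -0.22, -0.30 and -0.01 for the 4 groups, and from -0.20 to 0.05 for the other lists.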

How the data were processed

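RNA-seq counts of HGC27 cells, 2 wt and 2 RUNX3KO libraries, were analysed as deposited. The authors aligned reads to hg19 and deposited raw counts per gene symbol, without normalization. The submitters' processing notes name HISAT2 2.1.0 and HTSeq, whereas the paper's methods name STAR and FeatureCounts. Rows for reads without a gene, 25.9% to 28.1% of each table, were left out. The smallest total, 11731401 counts, sets the precision of genes with few counts, and errors cover counting and library spread only. Genes were kept by filterByExpr (minimum count 10, minimum total 15; 12967 genes), scaled by TMM and compared with the quasi-likelihood test of edgeR 4.0.16 in R 4.3.3, without a block. SE was the log2 fold change over the root of F.

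Gene positions and exon lengths came from GENCODE on GRCh37 (19372 symbols matched by name, 2112 by synonym; 93.4% of tested genes), and neighbourhoods were the 20 nearest tested genes on each side. The test was checked on simulated counts. Alternatives were other scalings, filters and tests (DESeq2 1.42.0, limma-voom 3.58.1, edgeR's exact test and its other quasi-likelihood method), a replicate block, each library left out, and subtraction of the neighbourhood median. Library counts are given for genes past 0.5 on the log2 scale and for SREBP regulators; of other lists, the 3 largest changes with an adjusted p under 0.05, 50 or more counts on average and genotypes that did not overlap. Some genes that this rule names are not reported here. Library counts of DHCR7 and SCD were added after their values were seen. The 29 genes and all lists were chosen with earlier results of these data known.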

Additional observations from a re-analysis of the deposited data

How the results depend on the processing

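Over 15 alternatives, the 29 genes gave 435 recomputed values. Of these, 370 kept their direction and their side of the threshold, 55 lost a call, 9 gained one and 1 changed sign, ACACA at -0.03 after neighbourhood subtraction, which had not passed. No gene reached a 2-fold change in any alternative. The number of the 29 genes that were lower ranged from 11 to 20 with each library left out, 11 without either RUNX3KO replicate, where the lone library is assumed to vary like the wt libraries, and from 16 to 22 otherwise. The number that were higher, 4, was 1 with library size alone, with upper-quartile scaling and with DESeq2, 2 without a filter and after neighbourhood subtraction, and 0 to 3 with each library left out. The median of the 29 genes was -0.30 with library size alone and with upper-quartile scaling, -0.24 after neighbourhood subtraction, and -0.29 to -0.25 with each library left out. That subtraction gave medians of -0.53 for the mevalonate steps and -0.24 for the SREBP regulators. The median of the fatty acid genes was -0.03 with library size alone and with upper-quartile scaling, and -0.05 to 0.03 with each library left out, so it has no stable sign. These scalings moved the median of all genes by at most 0.023 from 0.

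Over all genes, 3158 were lower and 3183 higher at an adjusted p of 0.05, against 1863 and 1829 with DESeq2, and 1378 to 2806 and 1285 to 2745 with each library left out. At 2-fold, 520 and 274 became 298 and 160 with 10 counts required in every library. RUNX3 ranged from -0.86 to -0.55 with each library left out. With the replicate block, 20 of the 29 genes were lower and 4 higher, as without it, with a median of -0.28. Libraries that share a number deviated together with a correlation of 0.0257, so the numbers were not taken to pair them. The cause of these differences was not tested beyond the number of libraries or genes that an alternative leaves.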
